A study of Mus musculus with 6 samples.

Results

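The genes described here are 10 integrin subunits that bind extracellular matrix, Itga1, Itga2, Itga8, Itga9, Itga10, Itga11, Itgav, Itgb1, Itgb3 and Itgb8. Their peaks were taken from a list of H3K9me3 peaks of Bergmann glia (BG), as every peak whose nearest gene in the authors' annotation is 1 of the 10 genes. This gave 20 of 34673 peaks, at 7 of the 10 genes. The list holds the peaks that the authors found in WT BG and not in mutant (MT) BG, and these are called WT-specific peaks here. H3K9me3 ChIP-seq was run on BG of C57BL/6 mice at postnatal day 10, sorted by the GFP of a Nes-GFP transgene, with 2 libraries from WT, 2 from MT and 2 controls whose labels name both input and IgG. MT BG had floxed Setdb1 deleted by Cre under the mGFAP promoter, so that loss of Setdb1 depends on where and when that promoter is active. The sources used here give neither the genotype of the controls nor whether libraries of a group came from separate animals. The libraries are merged in the list, which has no value per library and none for MT. Depth and replicate spread are therefore unknown, WT and MT could not be compared by any test, and every value below is a position, a score or a count of peaks in 1 merged list.

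Integrins are receptors made of an alpha and a beta chain. They bind matrix proteins such as collagens, fibronectin, vitronectin and tenascins outside the cell, and couple them to the actin cytoskeleton inside through talin and kindlin. BG are the radial astroglia of the cerebellar cortex, whose fibres reach the pial basement membrane and guide migrating granule cells, and beta 1 integrin with its partners is known for anchoring glial endfeet to that membrane. H3K9me3, a histone mark of heterochromatin, is dense over many transposable elements, and Setdb1 is an enzyme that deposits this mark.

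The sequences of 6 peaks are shown because they hold the highest score at each of the members with 3 or more peaks, the highest score inside a member's gene body, and the only peak centred in an exon. All are from the plus strand of mm10 (GRCm38.p6), and each gives the centre of its peak. At Itga9, the peak 12.3 kb upstream of the TSS (chr9:118594311-118594510) is a tandem array in which capitals mark every other copy of the unit. In the next 4, capitals mark CpG dinucleotides. They are the peak with the highest score inside the Itga9 body (chr9:118878453-118878752), an RLTR41 element upstream of Itga11 (chr9:62610836-62611035), a (CAAA)n repeat upstream of Itgb1 (chr8:128523778-128523977) and an MTE-int element downstream of Itgb3 (chr11:104674752-104674951). The last is the peak over exon 9 of Itga9 (chr9:118668532-118668831), with the exon in capitals.
Itga9, tandem array: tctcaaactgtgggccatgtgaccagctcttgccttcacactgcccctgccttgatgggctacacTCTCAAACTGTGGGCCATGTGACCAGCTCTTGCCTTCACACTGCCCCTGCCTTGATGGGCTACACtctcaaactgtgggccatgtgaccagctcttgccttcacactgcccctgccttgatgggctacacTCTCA
Itga9, gene body: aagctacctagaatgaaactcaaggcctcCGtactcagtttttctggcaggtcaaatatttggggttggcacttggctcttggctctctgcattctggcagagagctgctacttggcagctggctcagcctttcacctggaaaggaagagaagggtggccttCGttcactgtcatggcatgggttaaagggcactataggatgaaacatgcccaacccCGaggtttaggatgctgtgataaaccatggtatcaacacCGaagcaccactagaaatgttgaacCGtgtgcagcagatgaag
Itga11, RLTR41: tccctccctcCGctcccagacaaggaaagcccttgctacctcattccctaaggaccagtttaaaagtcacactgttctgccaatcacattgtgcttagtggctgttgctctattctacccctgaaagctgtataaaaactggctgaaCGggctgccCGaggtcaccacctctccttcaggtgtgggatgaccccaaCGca
Itgb1, (CAAA)n: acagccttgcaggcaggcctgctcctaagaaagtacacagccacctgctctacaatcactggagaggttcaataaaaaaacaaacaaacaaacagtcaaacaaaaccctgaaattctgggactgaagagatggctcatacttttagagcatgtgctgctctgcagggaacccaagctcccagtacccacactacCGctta
Itgb3, MTE-int: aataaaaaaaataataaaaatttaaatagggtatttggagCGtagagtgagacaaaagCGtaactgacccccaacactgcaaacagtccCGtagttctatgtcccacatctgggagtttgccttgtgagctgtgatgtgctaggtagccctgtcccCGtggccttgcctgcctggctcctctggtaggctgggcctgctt
Itga9, exon 9: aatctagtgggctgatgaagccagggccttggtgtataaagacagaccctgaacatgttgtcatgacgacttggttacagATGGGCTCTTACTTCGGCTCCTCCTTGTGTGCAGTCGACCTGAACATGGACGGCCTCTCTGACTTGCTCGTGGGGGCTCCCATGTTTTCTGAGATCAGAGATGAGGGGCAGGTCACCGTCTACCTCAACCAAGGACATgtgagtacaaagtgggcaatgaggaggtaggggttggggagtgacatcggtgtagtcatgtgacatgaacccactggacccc

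WT-specific peaks were given to Itga11 (6 peaks), Itga9 and Itgb3 (4 each), Itgb1 (3), and Itga1, Itga2 and Itgav (1 each), and none to Itga8, Itga10 or Itgb8. Across the 21000 protein-coding genes of the annotation with a curated transcript, 50.9% were given a peak. Among the 9551 of these with a length within the range of the members, 18.9 to 294 kb, the share was 60.4%. The 7 of 10 members with a peak are thus near the share of genes of like length. In the number of peaks, 4.74% of all 21000 genes, of any length, had at least as many as Itga11 and 10.5% at least as many as Itga9 or Itgb3. No such share was taken over genes of like length. Of the 20 peaks, 13 lay upstream and 7 downstream of the TSS used in the list, and none lay in a promoter. The 13 include a peak in exon 9 of Itga9, inside the gene, because the list measures it from a shorter transcript.

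**Figure D1:**
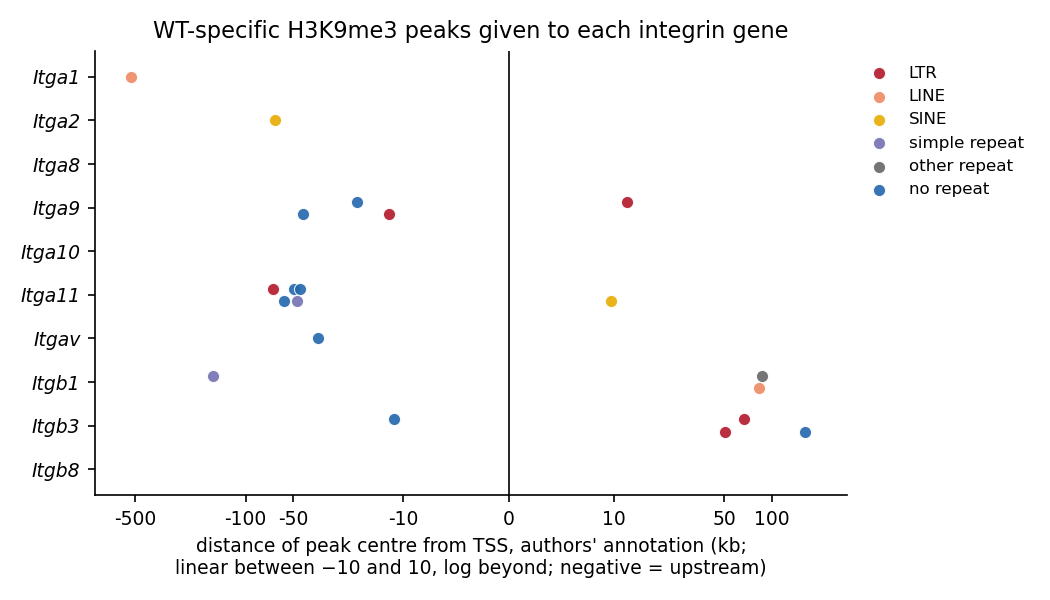
Distance of each of the 20 WT-specific peaks from the TSS (x axis, kb, linear within 10 kb and logarithmic beyond, negative upstream) for the 10 integrin genes (y axis), with 1 point per peak coloured by the class of repeat at its centre and shifted slightly up or down for legibility. 1 peak, at Itga11, lies within 10 kb of a TSS, and Itga8, Itga10 and Itgb8 have no point. The Itga9 peak at −43.0 kb is the one in exon 9, measured from the TSS of a shorter transcript.

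The score is the authors' value for a peak. Its scale was not given in the sources used here, so it serves only to rank peaks within the list. The 34673 peaks had a median score of 7.06, with quartiles of 6.1 and 8.34 and a range of 4.49 to 784.3. The 20 peaks at the integrin genes ran from 5.13 to 11.6 with a median of 7.22, and 12 of them (60.0%, 95% Wilson interval 38.7 to 78.1) reached the median of the list, as did 51.7% of all peaks. The intervals here cover counting error only, and peaks of 1 gene are not independent of each other.

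**Figure D2:**
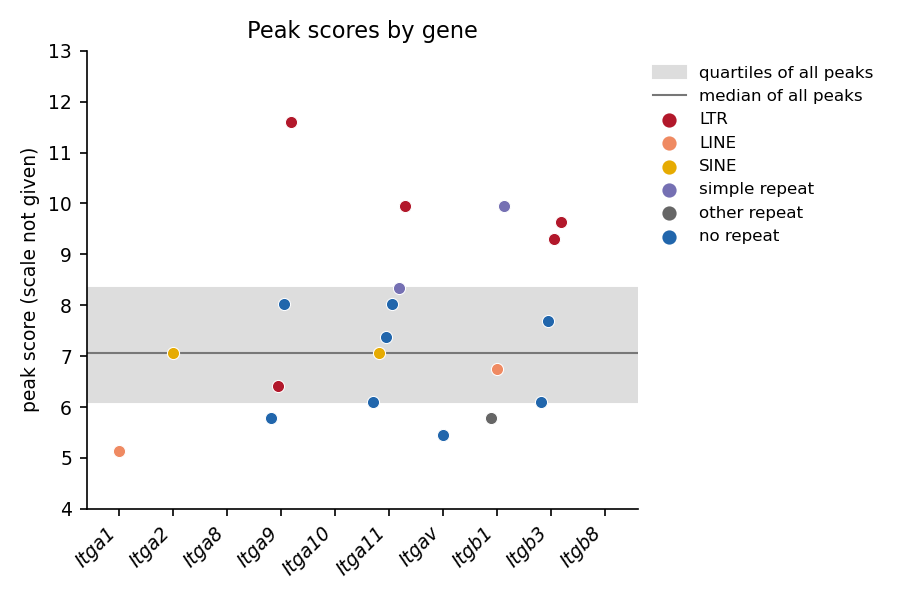
Score of each WT-specific peak (y axis, authors' score) at the 10 integrin genes (x axis), with 1 point per peak coloured by repeat class, over the quartiles (grey band) and the median (line) of all 34673 peaks. The 5 peaks above the band lie on LTR elements or a simple repeat and belong to Itga9, Itga11, Itgb1 and Itgb3.

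Among the collagen-binding alpha chains, which pair with beta 1, Itga11 had most peaks. Itga11 encodes the chain of a receptor for fibrillar collagen. Upstream of the gene, 5 peaks stood within 21.4 kb of each other. The farthest, at chr9:62610685-62611185 and 66.9 kb from the TSS, had a score of 9.95 and lay on an RLTR41 element, an LTR of the ERV1 family. The next, at chr9:62620885-62621385 and 56.7 kb from the TSS, had a score of 6.1 and no repeat at its centre. These were followed by a group of 3 peaks within 3.89 kb. Its first, at chr9:62628098-62628759 and 49.4 kb from the TSS, was 661 bp wide, had a score of 7.38 and had no repeat at its centre. The second, at chr9:62630643-62631143 and 47.0 kb from the TSS, lay on a (CCCCCA)n simple repeat with a score of 8.34. The third, at chr9:62632069-62632569 and 45.5 kb from the TSS, had a score of 8.02 and no repeat. The sixth Itga11 peak, at chr9:62687345-62687845, was the only one inside the gene. It lay in intron 1 of 29, 9.74 kb downstream of the TSS, on a B4 SINE, with a score of 7.06, the median of the list. The 5 upstream peaks were intergenic, and the next nearest TSS was that of Coro2b, a coronin that binds actin, 73.9 to 95.3 kb away. Coro2b itself was given 5 peaks. The 6 Itga11 peaks had a GC content of 51.3 to 57.3%, against a median of 49.1% over all peaks.

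Itga1 and Itga2 encode alpha chains of collagen receptors and lie next to each other on chromosome 13. The 1 peak given to Itga1, at chr13:115634920-115635420, was intergenic and 533 kb upstream of its TSS, on an Lx element of the L1 family. Its score of 5.13 was among the lowest of the list, since 99.9% of all peaks scored as high or higher. The peak given to Itga2, at chr13:114997301-114997801, had a score of 7.06 and was 65.5 kb upstream of the Itga2 TSS on a B1_Mur3 SINE of the Alu family. It lay inside Itga1, in intron 11 of 28. A second peak inside Itga1, at chr13:115086592-115087092 in intron 1 of 28 with a score of 7.7 and no repeat, was given to Pelo, a ribosome rescue factor whose gene lies within Itga1. By position, Itga1 therefore held 2 peaks in its body and Itga2 none, while by nearest TSS each was given 1. Itga10, which encodes a collagen receptor chain of cartilage, had no peak in its 18.9 kb body, and the nearest were 63.4 kb upstream, given to Polr3gl, and 187 kb downstream, given to Pdzk1.

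Among the alpha chains that recognise the RGD motif of fibronectin and vitronectin, Itgav was given 1 peak and Itga8 none. The Itgav peak, at chr2:83689416-83689916, was intergenic, 34.7 kb upstream of the TSS and outside repeats, with a score of 5.46. Of all peaks, 99.2% scored as high or higher. Itga8 had no peak in its 195 kb body. The nearest peaks were 77.4 kb upstream, given to Mindy3, and 22.4 kb downstream, given to E030013I19Rik, which left a stretch of 295 kb around the gene with no peak.

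Itga9 encodes an alpha chain that pairs with beta 1 and binds tenascin C and osteopontin. Of its 4 peaks, the first, at chr9:118586802-118587302, was 19.7 kb upstream of the TSS, outside repeats, with a score of 5.78. The second, at chr9:118594160-118594660, was 12.3 kb upstream on an MTEa element of the ERVL-MaLR family, and its score of 11.6 was the highest of the 20. Of all peaks, 9.39% scored as high or higher. Over the whole peak, 81.0% of the bases were the same as the base 65 positions further on, and in the central 200 bases, shown above, every base with a partner was, while in the other 19 peaks the best shift between 10 and 200 bp gave 30.0 to 34.3%. A read from such an array can match several of its copies, and the authors kept 1 best location for such reads. The effect of this on the score was not tested. The third Itga9 peak, at chr9:118618625-118619125, lay in intron 1 of 27, 12.2 kb downstream of the TSS, on an MLT1H element of the same family, with a score of 6.42 and no CpG in its sequence.

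The fourth, at chr9:118668431-118668931, was the 1 peak of the 20 centred in an exon. It covered all 138 bases of coding exon 9 of 28 (chr9:118668612-118668749), 62.0 kb from the 5′ end of the gene. It had a score of 8.02 and no repeat, and its distance in the list, 43.0 kb upstream, refers to the TSS of a shorter Itga9 transcript. Its GC content was 53.7%, with 9 CpG dinucleotides and an observed to expected CpG ratio of 0.257.

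Counted by position, Itga9 held more peaks than its name in the list shows. The centres of 9 peaks lay in its 294 kb body, or 30.6 per Mb. Of the protein-coding genes of any length, 0.61% (128 of 21000) had 9 or more. Itga9 is the longest of the members, and no share was taken over genes of its length. Of the 9 peaks in Itga9, 7 were given to Ctdspl, a small phosphatase gene that starts 25.5 kb beyond the end of Itga9. They stood in the last part of Itga9, from 234 to 286 kb from its 5′ end, within 52.0 kb. By their centres, all 7 were intronic and, in the authors' annotation, outside repeats. The first, at chr9:118840822-118841322, also covered a whole Itga9 exon, which lies 234.384 to 234.473 kb from the 5′ end. Lower-case genome sequence, another mark of repeats, stood at the centre of some of the 7, among them the peak with the highest score. The peak with the highest score, at chr9:118878150-118879055, was 905 bp wide with a score of 19.9, which 1.67% of all peaks reached. Next came a peak of 625 bp at chr9:118866074-118866699 with a score of 9.63. The other 5 had scores of 5.78 to 6.74, below the median of the list. GC content of the 7 was 49.9 to 54.7% and the CpG ratio 0.163 to 0.398. No peak lay between Itga9 and Ctdspl, and Ctdspl itself held 2 of the 9 peaks given to it.

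**Figure D3:**
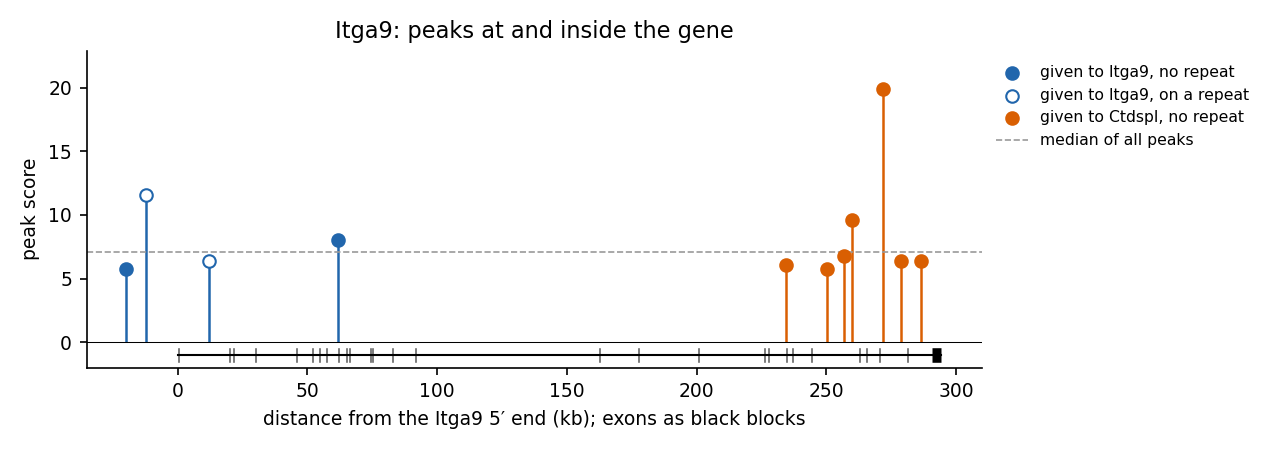
Score (y axis, authors' score) of the WT-specific peaks at and inside Itga9, by distance of the peak centre from the 5′ end of the gene (x axis, kb), with exons as black blocks below. Filled points are outside repeats and open points on a repeat, by the authors' annotation, and colour gives the gene the peak was given to. 7 peaks given to Ctdspl stand between 234 and 286 kb, the highest with a score of 19.9.

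Itgb1, the beta chain shared by the collagen-binding alpha chains, by the products of Itga8 and Itga9 and by many others, was given 3 peaks, all intergenic and far from the gene. The first, at chr8:128523564-128524191, was 162 kb upstream of the TSS and 627 bp wide, on a (CAAA)n simple repeat, with a score of 9.95. The next nearest TSS, that of Mir1903, was 165 kb from it, so that its assignment to Itgb1 rests on a small difference in distance. The end of Nrp1 (chr8:128358591-128505476, plus strand) lies closer to this peak than the body of Itgb1 does. The second, at chr8:128768142-128768642, was 82.7 kb downstream of the TSS on an Lx element of the L1 family, with a score of 6.74. The third, at chr8:128772160-128772660, was 86.8 kb downstream on an RMER1A element, with a score of 5.78 and no CpG. The 47.9 kb body of Itgb1 had no peak, and it stood in a stretch of 245 kb with none.

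Itgb3 encodes the beta chain of the vitronectin receptor. Its 4 peaks were spread over both sides of the gene and its body. The first, at chr11:104596260-104596760, was intergenic, 11.5 kb upstream of the TSS and outside repeats, with a score of 6.1. The second, at chr11:104658051-104658720, lay in intron 10 of 14, 50.4 kb downstream of the TSS, on an RLTR20B1 element of the ERVK family. It was the widest of the 20, 669 bp, with a score of 9.31 and the highest CpG ratio among them, 0.413. The third, at chr11:104674523-104675180, lay 66.9 kb downstream of the TSS and beyond the 3′ end, on an MTE-int element of the ERVL-MaLR family, with a score of 9.63. The fourth, at chr11:104771400-104771900, was 164 kb downstream and outside repeats, with a score of 7.7. In RefSeq it lies inside Efcab13, a gene with model transcripts only. The 2 peaks with the highest scores at Itgb3 were both on LTR elements and stood 16.5 kb apart.

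**Figure D4:**
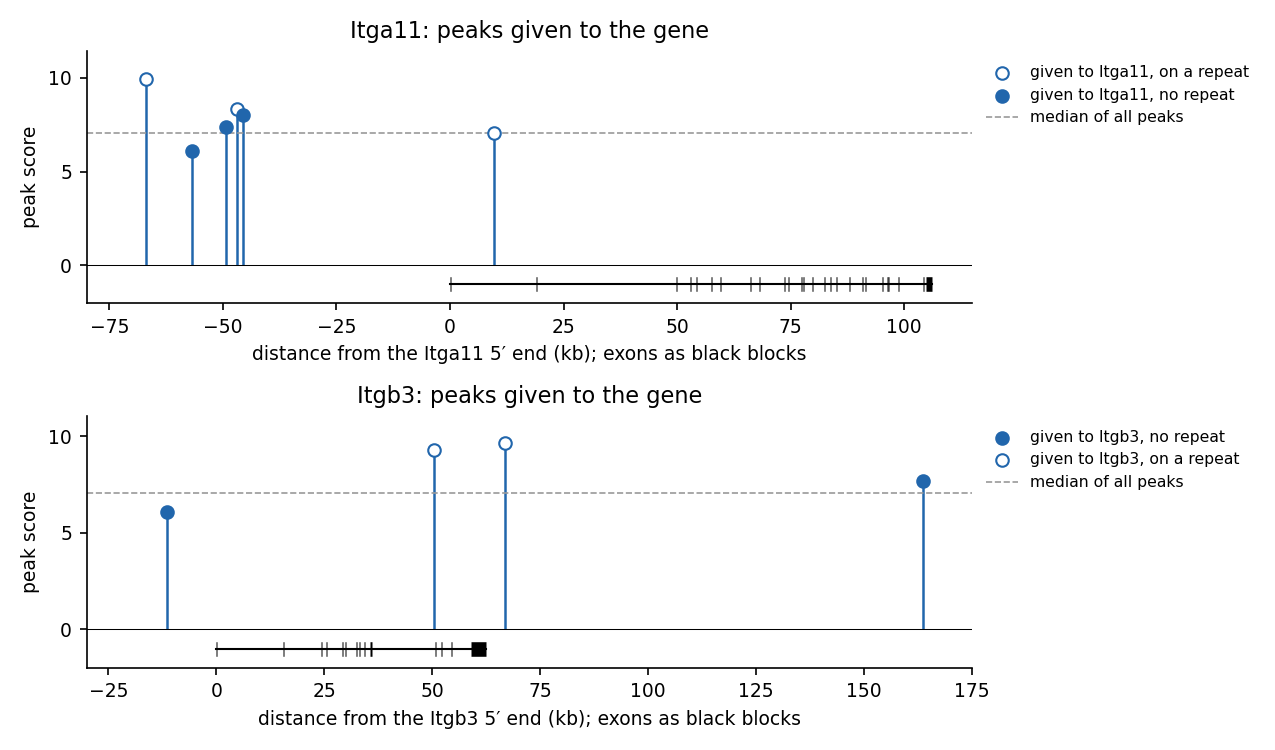
Score (y axis, authors' score) of the WT-specific peaks given to Itga11 (top) and Itgb3 (bottom), by distance of the peak centre from the 5′ end of the gene (x axis, kb), with exons as black blocks. At Itga11, 5 of 6 peaks stand upstream within 21.4 kb, and at Itgb3 both peaks above a score of 9 are on LTR elements (open points).

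Itgb8, the beta chain that pairs with the product of Itgav to bind latent TGF-beta, was given no peak. Its 75.5 kb body had none either. The nearest upstream peak was 319 kb away, given to Macc1, with a score of 15.4 on an IAPEY3_LTR element, and the nearest downstream was 71.2 kb away on an RLTR10C element, given to Abcb5. The stretch of 465 kb without a peak around Itgb8 was the longest of the 6 members with no peak in their body, which ranged from 160 kb at Itgav upward.

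By position, 13 peaks were centred in the bodies of 4 members, 9 in Itga9, 2 in Itga1 and 1 each in Itga11 and Itgb3. Of all protein-coding genes, 31.3% held a peak in their body, and 48.9% of those with a length in the members' range did. The 4 of 10 members lie between these shares. Of the 13, 12 had their centre in an intron, 4 lay on a repeat and 9 were given to another gene. Only 4 peaks were counted both by nearest TSS and by body for the same gene.

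By class, 15 of the 20 peaks were intergenic (75.0%, 95% Wilson interval 53.1 to 88.8), against 59.4% of all peaks. In introns were 4 (20.0%, 8.07 to 41.6), against 34.2% of all peaks. Counted instead by gene body with 5 kb to either side, 12 of 14 peaks (85.7%) were intronic. That count takes peaks inside genes, so a high intronic share is built into it. It cannot show whether the low share belongs to the nearest-TSS rule. Within 10 kb of a TSS was 1 (5.0%, 0.888 to 23.6), against 19.4% of all peaks, and over 40 kb away were 14 (70.0%, 48.1 to 85.5), against 48.1%. The median distance was 49.9 kb, and 37.4 kb over the list. The centres of 12 peaks lay on a repeat (60.0%, 38.7 to 78.1), against 54.0% of all peaks. This order turned when the repeat was read from lower-case genome sequence at the centre, with 35.0% of the members' peaks and 39.8% of all peaks. Of the 14 peaks in or within 5 kb of the gene bodies, 35.7% lay on a repeat. The 12 elements were 5 LTR elements, 2 LINE, 2 SINE, 2 simple repeats and 1 element classed as other. LTR elements thus took 25.0% of the 20 peaks and 26.6% of the list. Simple repeats took 10.0% (2.79 to 30.1) and 0.857%. The members' peaks had a median GC content of 52.1% and a median CpG ratio of 0.252, and all peaks 49.1% and 0.205. Another peak stood within 10 kb of 8 of the 20 (40.0%, 21.9 to 61.3) and of 33.3% of the list.

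The peaks of the laminin chains and type IV collagens, basement membrane components that integrins bind, are set beside these in the plot of where the peaks lie. At 10 of the 11 laminin genes there were 20 peaks, of which 14 were intronic (70.0%, 48.1 to 85.5) and 7 on a repeat (35.0%, 18.1 to 56.7). At 3 of the 6 type IV collagen genes there were 12 peaks, of which 9 were intronic (75.0%, 46.8 to 91.1) and 4 on a repeat (33.3%, 13.8 to 60.9). Over all protein-coding genes, 50.9% were given a peak. The intervals of the intronic share of the integrin members and of either matrix group did not overlap, while those of the share on a repeat did, and 34.2% of all peaks were intronic. The gap was seen with peaks assigned by nearest TSS. A count by gene body takes peaks inside genes, so a high intronic share is built into it. It cannot show whether the gap depends on the rule. Counted by gene body with 5 kb to either side, an alternative chosen for the matrix groups after the data were seen, the intronic share was 85.7% (60.1 to 96.0) at the integrin members, 85.0% (64.0 to 94.8) at the laminin chains and 87.5% (64.0 to 96.5) at the type IV collagens. The difference was not tested, since the 3 groups of genes were chosen with results known. Median scores were 6.74 for the laminin chains and 7.54 for the type IV collagens, beside 7.22 for the integrin members, and the highest score was 30.8 at a laminin chain. Col4a2 and Col4a1, which encode the main chains of basement membrane collagen, were given 6 and 4 peaks.

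**Figure D5:**
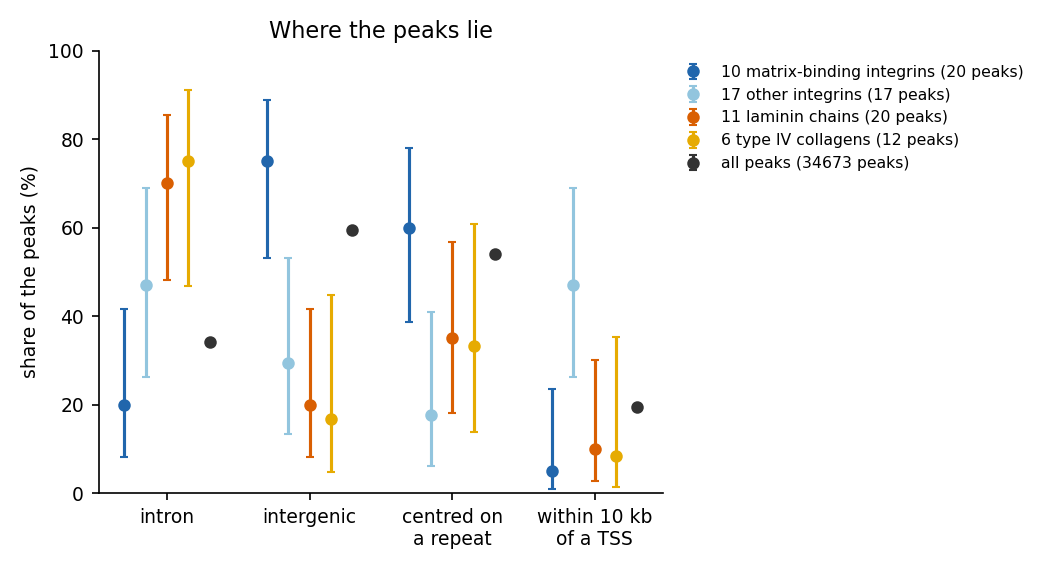
Share of peaks (y axis, %) in introns, in intergenic sequence, centred on a repeat and within 10 kb of a TSS, for the 10 matrix-binding integrins, 17 other integrins, 11 laminin chains, 6 type IV collagens and all peaks. Points are shares and bars 95% Wilson intervals, which cover counting error only. The integrin members stand at 20.0% in introns and 75.0% intergenic, and the laminin chains at 70.0% and 20.0%.

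Of the other 17 integrin genes, 11 were given 17 peaks, so that 18 of all 27 integrin genes had 37 peaks. Beside these counts, 50.9% of all protein-coding genes were given a peak, and 60.4% of those in the length range of the 10 members. The ligand classes are small, and no class was tested against these shares. By ligand class, peaks were given to 3 of 4 collagen-binding alpha chains, 2 of 4 RGD-binding alpha chains, 1 of 3 laminin-binding alpha chains, both of the alpha 4 and alpha 9 group, 5 of 5 leukocyte alpha chains and 5 of 9 beta chains. Itgb4, the beta chain of hemidesmosomes, was given 3, and Itga3, Itgb6, Itgad and Itgax 2 each. Itga2b, Itga4, Itgae, Itgal, Itgam and Itgb2l were given 1 each. Itga5, the fibronectin receptor chain, and Itga6 and Itga7, the main laminin receptor chains, had none, nor had Itgb2, Itgb5 or Itgb7. The 17 peaks had a median score of 6.42. Of these, 8 lay within 10 kb of a TSS (47.1%, 26.2 to 69.0) and 3 on a repeat (17.6%, 6.19 to 41.0).

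Of 25 genes for integrin adaptors and activators, 18 were given 58 peaks. Tns3, a tensin that links integrin tails to actin, had most with 13, followed by Parvg, a parvin, with 6. Tln2, a talin, Kank1, which binds talin, and Itgb1bp1, which binds the beta 1 tail, had 5 each. Of 30 genes for integrin ligands other than collagens and laminins, 19 were given 51 peaks. Ltbp1, which holds latent TGF-beta in the matrix, had most with 8. Lrrc32, Tgfb2 and Thbs1 had 4 each. The counts of adaptor and ligand genes stand beside 50.9% of all protein-coding genes with a peak, and 60.4% of those in the members' length range.

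The peaks were searched on both strands for TTGGCA, a motif of 1 subunit of nuclear factor I (NFI). This family was chosen because the study links its member Nfix to Setdb1. The letters stood in 7 of the 20 peaks (35.0%, 18.1 to 56.7), and in 29.1% of all peaks. In the central 300 bases alone the order turned, with 10.0% of the members' peaks and 17.3% of all peaks. Among peaks of 500 bp, where width does not differ, 6 of 16 members' peaks and 26.4% of the list had them. They were found in 4 of the 6 Itga11 peaks, 2 of the 3 Itgb1 peaks and the Itga1 peak. Outside the 20, they stood in 2 of the 7 peaks inside Itga9 that were given to Ctdspl. The one with a score of 19.9 held 3 copies. The longer site, TTGGC and GCCAA separated by any 5 bases, was in none of the 20 and in 0.0376% of all peaks. A match is a description of the sequence, not a measured binding site. The windows of 30 bases are shown with TTGGCA in capitals, on the strand that reads it, to let the flanks be compared.
Itga1, Lx: agcatgaacttcTTGGCAtccacaatagaa
Itga11, RLTR41: agcacaatgtgaTTGGCAgaacagtgtgac
Itga11, no repeat, 661 bp peak: atttctgcagagTTGGCAaatggctgaagt
Itga11, (CCCCCA)n: agaatactgaacTTGGCAgacgctggagtt
Itga11, no repeat, 500 bp peak: ggcttggtggggTTGGCAgggttcaggccc
Itgb1, Lx: agcatgtacttcTTGGCAtccactgggttt
Itgb1, RMER1A: tccagctagggcTTGGCAggagaactcatc

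The 30-base windows of the Itga1 peak (chr13:115635299-115635328, plus strand) and of the second Itgb1 peak (chr8:128768603-128768632, minus strand), both on Lx elements, had the same base at 16 of the 24 positions outside TTGGCA. The 4 Itga11 windows lie at chr9:62610901-62610930 (minus), chr9:62628096-62628125 (plus), chr9:62630708-62630737 (minus) and chr9:62632481-62632510 (minus), and that of the third Itgb1 peak at chr8:128772604-128772633 (plus). RefSeq promoter windows, from 250 bases before to 50 after the gene's start, were at hand for 9 of the 10 members, and no WT-specific peak overlapped any of them.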

How the data were processed

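The study measured H3K9me3 by ChIP-seq in BG at postnatal day 10 (2 WT, 2 MT and 2 control libraries). The authors aligned reads to mm10 with Bowtie2 (2.2.8 in the submitters' processing notes), kept 1 best location for reads matching several places, called and annotated peaks with HOMER (4.10.1) and kept those present in WT and absent in MT. In the deposited list, each peak has a position, the authors' score, a class, a nearest TSS and the repeat at its centre. How libraries were merged, the background of the peak call and the scale of the score are not given in the sources used here, and depth is unknown.

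Here, peaks were counted by the authors' gene name and by whether the centre lies in a gene body of RefSeq (GRCm38.p6, the build of mm10), with pandas 2.3.3 and pysam 0.24.0. Older symbols were matched through Entrez IDs. For the 20 members' peaks, class and nearest gene recomputed from curated transcripts were the same in 20 of 20. GC, CpG ratio and motifs were computed for 34600 peaks, those on assembled chromosomes. Scripts were tested on simulated data. As the list has no replicates, no test was run. The members and gene lists were chosen with earlier results of these data known. Named genes are the 10 members, other integrins, genes sharing a peak with a member and up to 4 genes with most peaks of each other list, ties included.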

Additional observations from a re-analysis of the deposited data

How the results depend on the processing

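Of 21 alternatives, 12 moved a value. By centres inside the gene body, 4 members in place of 7 had a peak, with 13 peaks of which 4 are given to the same gene by nearest TSS. Gene bodies with 5 kb to either side held 14 peaks, of which 85.7% were intronic (20.0% by nearest TSS) and 35.7% on a repeat (60.0%). Keeping peaks within 10 kb of the TSS left 1 member and 1 peak. Peaks outside repeats were 8, at 4 members, and peaks scoring at or above the median of the list were 12, at 5 members. The latter took the integrin genes with a peak from 18 to 10 of 27. With a repeat called from lower-case sequence at the peak's centre, the share on a repeat was 35.0%, against 39.8% of all peaks, and lower case was found in 65.5% of all peaks that the authors place on a repeat and in 9.72% of the others. TTGGCA stood in 10.0% of the members' peaks and 17.3% of all peaks when only the central 300 bases were searched. The median score stayed between 6.74 and 7.22 over 3 alternatives. No paired analysis was possible because the list holds no value per library. Without values for MT or for each library, neither the size of the loss in MT nor its spread can be given.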

Other observations

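Ctdspl was given 9 peaks and Itga9 4, although 9 peaks lie in Itga9 and 2 in Ctdspl. For the 7 peaks given to Ctdspl inside Itga9, the distance to the Ctdspl TSS was 33.5 to 85.5 kb. Among the curated RefSeq transcripts used here, the nearest TSS to these peaks was that of Gm51695, 1.91 to 46.1 kb away. Coro2b, the neighbour of Itga11, was given 5 peaks and held 5 in its body. Of all peaks, 1.43% had an observed to expected CpG ratio of 0.6 or more, and 0 of the 20 peaks at the members did, where the highest was 0.413.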
